A study of Sus scrofa with 9 samples.

Results

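The heat shock proteins and chaperones of the boar testis were followed on a porcine microarray in 3 groups. The genes were taken by name: every probe whose gene name began with HSP, DNAJ, CCT2 to CCT8, TCP1, BAG and a digit, STIP1, PDIA, CALR, CANX or CLGN. This gave 52 gene names on 146 probes, of 49437 names on the 60531 probes of the array other than the antisense ones. For each gene, the probe with the highest mean in the log2 table that the authors deposited was reported, which left 48 genes. The prefixes also caught TCP11L2 and HSPBAP1, which are not known as chaperones. DNAJC6, HSPB3 and PDIA2 were not well above background on any array, and DNAJC17, which was measured but is not in that table, differed by -0.24 on the log2 scale between t(1;14) and control (SE 0.60, adjusted p = 0.759, limma). HSPA2 and HSPA9 were not among the names found.

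Each group had 3 arrays of whole testis biopsies (Sus scrofa). The t(1;14) group came from 1 Landrace x Duroc crossbred boar that carried the reciprocal translocation trcp(1;14) and was oligo-astheno-teratospermic, with few, poorly motile and misshapen spermatozoa. The oligospermic group came from a boar with few spermatozoa and a normal karyotype, and the control group from boars with normal semen and a normal karyotype. No ages were used, and the methods name 3 fertile control boars without saying which array holds which, so a group's spread is between arrays and the tests compare arrays rather than animals. The translocation cannot be told apart from any other difference between the boars. In the study's histology the t(1;14) testis had atrophic seminiferous tubules and more interstitial cells. In such bulk RNA, fewer cells of a type and less RNA per cell cannot be told apart.

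Chaperones help other proteins to fold, to assemble and to survive stress. HSP70 proteins bind exposed stretches of unfolded protein in a cycle driven by ATP, J-domain proteins (DNAJ) deliver the substrate and start the cycle, and BAG proteins release it. HSP90 acts later, on signalling proteins that are almost folded, and STIP1 carries clients from HSP70 to HSP90. The chaperonins are closed chambers: HSPD1 with its lid HSPE1 in mitochondria, and the CCT ring, of which TCP1 is a subunit, in the cytosol. In the endoplasmic reticulum, calnexin (CANX), calreticulin (CALR) and the testis protein calmegin (CLGN) hold glycoproteins while PDIA enzymes form disulfide bonds. Germ cells have chaperones of their own, such as HSPA1L of the HSP70 family and HSPA4L of the HSP110 type.

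Each array probe was a 60-base oligonucleotide, and the position of its first base in the transcript is given by the array's annotation. Over the pairs of member probes that share at least 15 bases of 1 transcript, 33 in all, the offset in the sequences and the offset in those positions differed by at most 1 base in all 33. Stretches of 30 bases are shown for the probes on which the results turn, 5′ to 3′. In the first set, a pair of probes is shown for each gene. The pairs of BAG6, HSPA13 and HSPB8 gave unlike differences and that of DNAJC5B gave like ones. The capitals mark AATAAA, the signal for cleavage and polyadenylation. As letters this motif was found in 6 of the 146 member probes (4.11%) and in 11.4% of all 60531 probes other than the antisense ones, and its reverse complement in 7 (4.79%) and in 4.23%.
BAG6, probe at base 1587: tcatccggatttcccaccagagcgtggaac
BAG6, probe at base 3691: cagtatttaagaAATAAAaagtcagatttt
HSPA13, probe at base 1037: ttaagacaagctgtggaaatggtcaaatta
HSPA13, probe at base 3962: gaagagcatagttattgtgcataacaaatt
HSPB8, probe at base 1091: tttatctaacagccacagaaaagaaacagt
HSPB8, probe at base 1322: cagactagtggtgttgtgtatatgggtggg
DNAJC5B, probe at base 536: taatacctacttcatgctatcaagctggtg
DNAJC5B, probe at base 1016: tccattttgatgAATAAAggccttaagagt

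The second set holds the reported probes of 3 HSP70 genes, which are close relatives. The capitals mark the longest run that each shares with another of the 3.
HSPA1L, probe at base 2339: ttcttcttccTGTGTGGatggttatttgtc
HSPA6, probe at base 2386: tatgaacattTGTGTGGcactttaacgttg
HSP70.2, probe at base 1775: gagcaggtgtGTAACCccatcatcagcgga
Laid against each other without gaps, these 60-base probes matched at 19 to 23 bases and shared runs of at most 7. The last set holds the reported probes of the mitochondrial chaperonin.
HSPD1, probe at base 2212: gacgacatagaatggtttactgctgtcatt
HSPE1, probe at base 403: gcccccattccactgaagttctgagatctt

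Values below are log2 signals, that is, background-subtracted intensities brought to 1 distribution over the 9 arrays, and arrays are given in the order 1, 2, 3 of each group. A gene is said to have risen or fallen when limma gave an adjusted p of at most 0.01 over all tested probes, and to be differential when its log2 fold change also reached 2 in size. All 48 genes were well above background on all 9 arrays and were tested. Between 37087 and 40632 probes per array were well above background and 52 to 275 were saturated. Every slide held 1 array of each group.

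Between t(1;14) and control, 11 of the 48 genes rose and 6 fell, against 15.6% of the 40643 tested probes that rose and 15.6% that fell. With 1 probe for each gene that has a RefSeq symbol, 16.2% of 5359 genes rose and 19.0% fell. Of the 48 genes, 1 was differential upwards (HSPB8) and 3 downwards (DNAJC5B, HSPA1L and DNAJA4), against 1.31% and 4.3% of the tested probes. The median log2 fold change of the 48 genes was 0.13 and that of all tested probes 0.14. The t(1;14) and control arrays did not overlap for 32 of the 48 genes and for 62.0% of the tested probes. The 17 genes that rose or fell were all among the 32, so their differences within each slide had to have 1 sign on all 3 slides. In size these differences ran from 0.47 to 3.05. With slide as a block 8 rose and 6 fell, against 10.8% and 13.4% of the tested probes, and 4 were differential. Between oligospermic and control no gene of the 48 passed. The plot of all 48 genes shows both comparisons.

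**Figure D1:**
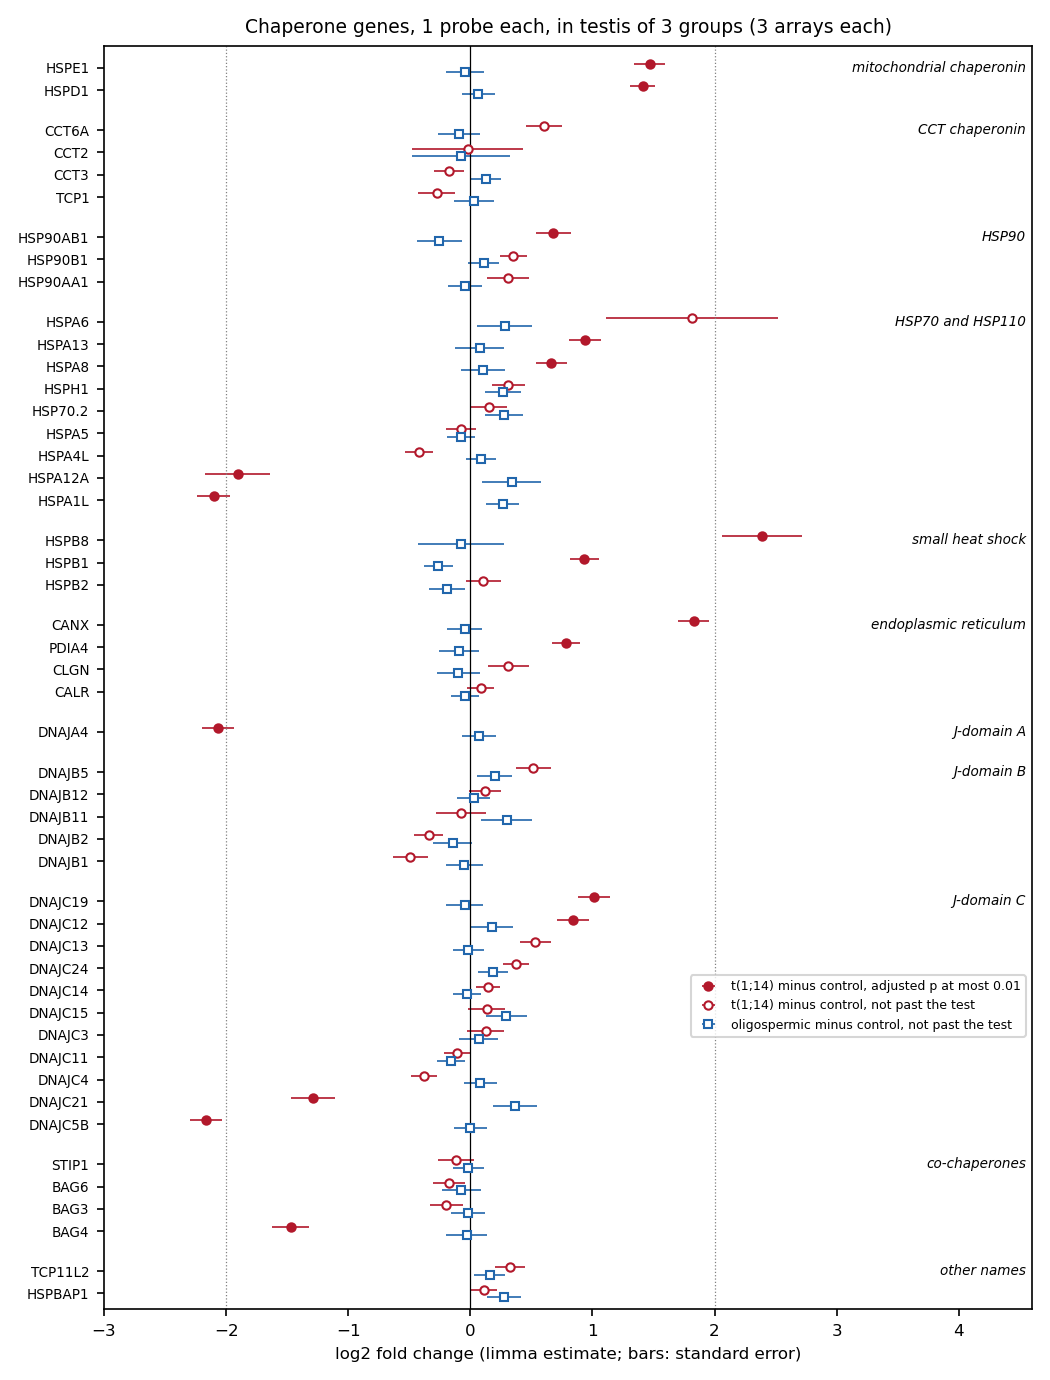
The log2 fold change (horizontal axis) of 48 chaperone genes, 1 probe each, grouped by family, for t(1;14) minus control (red circles) and oligospermic minus control (blue squares); bars are limma standard errors, filled symbols passed an adjusted p of at most 0.01, and dotted lines mark a log2 fold change of 2 in either direction. The red values spread from -2.17 (DNAJC5B) to 2.39 (HSPB8), and the blue ones from -0.26 to 0.36, none of them filled.

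Both genes of the mitochondrial chaperonin rose in t(1;14). HSPD1 (HSP60), the chamber, read 11.58, 11.55 and 11.64 in control, 11.80, 11.71 and 11.45 in oligospermic and 13.05, 12.98 and 12.98 in t(1;14). The t(1;14) arrays lay above all 6 others, by a log2 fold change of 1.41 against control (SE 0.10, adjusted p = 0.000188, n = 3 and 3), which is 2.66-fold. HSPE1 (HSP10), its lid, read 13.37, 13.07 and 13.07 in control, 13.29, 13.16 and 12.93 in oligospermic and 14.61, 14.63 and 14.67 in t(1;14). It rose by 1.47 (SE 0.13, adjusted p = 0.000329). All 20 HSPD1 probes rose, by 1.22 to 1.74, and so did all 4 HSPE1 probes, by 1.35 to 1.49, although many of the HSPD1 probes overlap and are repeat readings. HSPD1 and HSPE1 are both on chromosome 15 in the RefSeq table of Sscrofa11.1.

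The cytosolic chaperonin genes on the array, 4 in all, did not pass the test against control. TCP1 read 16.16, 15.76 and 16.07 in control and 15.68, 15.88 and 15.61 in t(1;14), groups that overlap (log2 fold change -0.28, SE 0.15, adjusted p = 0.173). One oligospermic spot of TCP1 was saturated. A pair of TCP1 probes at base 1843 have identical sequences and gave -0.41 and -0.37. CCT6A was higher by 0.60 (SE 0.15, adjusted p = 0.0158), CCT3 lower by -0.17 (SE 0.13, adjusted p = 0.286). CCT2 spread over 0.71 (SD) within control and differed by -0.02 (SE 0.46).

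Of the HSP90 genes, which hold signalling proteins, HSP90AB1 rose and the other two did not pass. HSP90AB1, the constitutive cytosolic form (named HSPCB on the array), read 14.22, 13.88 and 14.26 in control and 14.73, 14.91 and 14.76 in t(1;14). The difference of 0.68 (SE 0.14, adjusted p = 0.0095) lay close to the threshold, and with slide as a block the adjusted p was 0.0163. HSP90AA1, the inducible cytosolic form, differed by 0.31 (SE 0.17, adjusted p = 0.178), with t(1;14) array 2 at 16.02 and the other two at 15.51 and 15.61. HSP90B1, the form of the endoplasmic reticulum, differed by 0.35 (SE 0.11, adjusted p = 0.0372), and its 9 probes ranged from 0.29 to 0.51.

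The HSP70 and HSP110 genes went in both directions, with 2 of 9 up and 2 of 9 down, beside 15.6% and 15.6% of all tested probes. HSPA1L, an HSP70 gene expressed in spermatids, read 15.24, 15.42 and 15.19 in control, 15.69, 15.40 and 15.56 in oligospermic and 13.14, 13.37 and 13.03 in t(1;14). It was thus 4.30-fold lower in t(1;14) than in control (log2 fold change -2.10, SE 0.14, adjusted p = 0.000154). HSPA12A, a distant relative of HSP70, read 7.56, 7.94 and 7.08 in control and 5.53, 5.99 and 5.35 in t(1;14), a log2 fold change of -1.91 (SE 0.27, adjusted p = 0.00203). The t(1;14) arrays of both genes lay below every other array. With normexp background correction HSPA12A stood at -1.12 against control, and without t(1;14) array 1 or 3 it did not pass.

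HSPA8, the constitutive cytosolic HSP70, read 14.07, 13.77 and 14.05 in control and 14.62, 14.62 and 14.65 in t(1;14). It rose by 0.66 (SE 0.12, adjusted p = 0.00604), and with slide as a block the adjusted p was 0.0161. The reported probe of HSPA13, a microsomal HSP70, rose by 0.94 (SE 0.13, adjusted p = 0.00213; 0.0102 with slide as a block), but a second probe of it fell, as given with the probe positions. HSPA4L, the HSP110-type gene known in testis, was lower by -0.42 (SE 0.12, adjusted p = 0.0243).

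The stress-inducible HSP70 genes HSP70.2 and HSPA6 did not pass. HSP70.2, the name the array and RefSeq use for an inducible HSP70 of the pig on chromosome 7, read 9.03, 9.38 and 9.35 in control and 9.56, 9.25 and 9.41 in t(1;14), groups that overlap (0.15, SE 0.15, adjusted p = 0.432). HSPA6, also inducible (named HSP70 on the array), read 5.72, 5.13 and 5.07 in control, 5.77, 5.69 and 5.31 in oligospermic and 6.08, 8.81 and 6.47 in t(1;14). All 3 t(1;14) values were the highest of the 9, but array 2 stood far above the others, and the difference of 1.81 (SE 0.71, adjusted p = 0.0728) fell to 0.97 (SE 0.26, adjusted p = 0.0329) without it. HSPH1, an HSP110, differed by 0.31 (SE 0.14, adjusted p = 0.0997). HSPA5 (BiP), the HSP70 of the endoplasmic reticulum, differed by -0.08 (SE 0.12, adjusted p = 0.618).

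Of the 3 small heat shock genes, whose products bind unfolding proteins without ATP, HSPB8 and HSPB1 rose in t(1;14). HSPB8, which works with BAG3 in disposing of misfolded proteins, read 9.15, 9.47 and 8.17 in control, 9.19, 8.78 and 8.59 in oligospermic and 11.23, 11.39 and 11.35 in t(1;14). It was 5.25-fold higher than in control (log2 fold change 2.39, SE 0.33, adjusted p = 0.00185), although control array 3 stood below the other two. HSPB1 (HSP27 on the array) read 10.65, 10.67 and 10.80 in control, 10.50, 10.47 and 10.36 in oligospermic and 11.54, 11.76 and 11.62 in t(1;14), a rise of 0.93 (SE 0.12, adjusted p = 0.00132). HSPB2 differed by 0.11 (SE 0.14, adjusted p = 0.561). BAG3 itself differed by -0.20 (SE 0.14, adjusted p = 0.261).

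In the endoplasmic reticulum CANX and PDIA4 rose and the other two did not pass. CANX, the membrane-bound lectin chaperone, read 11.09, 10.80 and 11.05 in control, 11.08, 10.94 and 10.78 in oligospermic and 12.70, 12.85 and 12.89 in t(1;14). The rise of 1.83 (SE 0.13, adjusted p = 0.000182) is 3.55-fold and rests on 1 probe named CANX. A further probe, which only its description ties to calnexin, differed by 0.36 (SE 0.18, adjusted p = 0.14) and did not pass. PDIA4, a disulfide isomerase, read 9.12, 9.16 and 9.17 in control and 9.786, 10.004 and 10.002 in t(1;14), a rise of 0.78 (SE 0.11, adjusted p = 0.00229). CALR, the soluble counterpart of CANX, differed by 0.08 (SE 0.11, adjusted p = 0.554). CLGN, the calnexin relative of spermatocytes and spermatids, read 14.05, 13.48 and 13.81 in control and 14.07, 14.12 and 14.08 in t(1;14), a difference of 0.31 (SE 0.16, adjusted p = 0.157).

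**Figure D2:**
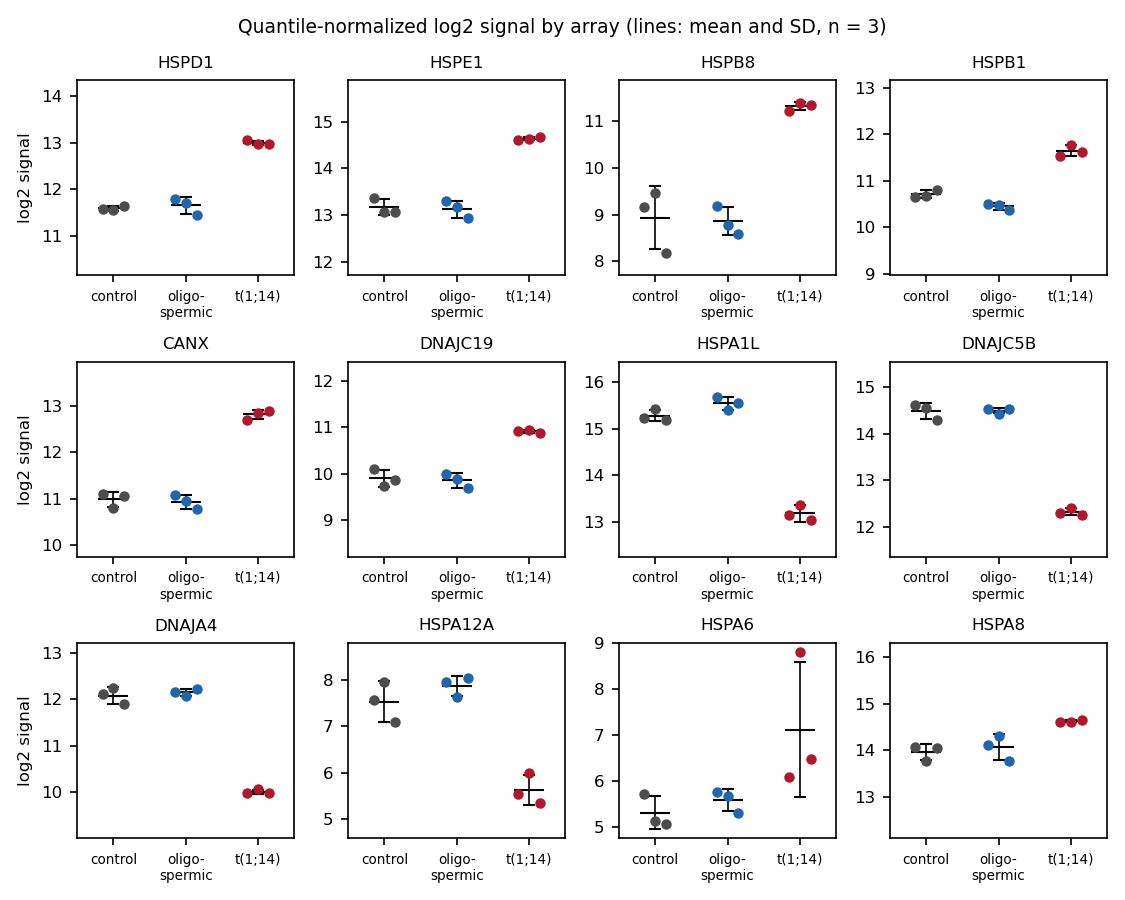
Log2 signal of 12 chaperone genes on each of the 9 arrays (points), by group, with the group mean and SD (lines, n = 3); each panel has its own axis, since levels of different probes are not comparable. All the genes shown but HSPA6 rose or fell against control, so that the 3 t(1;14) points lie apart from the 6 others in all 12 panels goes with their choice. Over all tested probes 62.0% did not overlap between t(1;14) and control, and 70.9% between t(1;14) and oligospermic. In HSPA6 a single t(1;14) array stands at 8.81.

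Of 17 J-domain genes, 2 rose and 3 fell, beside 15.6% and 15.6% of all tested probes. DNAJC5B, a cysteine string protein known from testis, read 14.62, 14.55 and 14.30 in control, 14.52, 14.43 and 14.52 in oligospermic and 12.30, 12.41 and 12.26 in t(1;14). It was 4.49-fold lower in t(1;14) (log2 fold change -2.17, SE 0.13, adjusted p = 0.000137), and its second probe fell by 1.95. DNAJA4, a partner of cytosolic HSP70, read 12.11, 12.24 and 11.89 in control, 12.15, 12.07 and 12.23 in oligospermic and 9.99, 10.06 and 9.98 in t(1;14) at the reported probe (-2.07, SE 0.13, adjusted p = 0.000143), while the second probe did not pass. DNAJC21, a J-domain protein of ribosome assembly, read 11.82, 12.36 and 12.07 in control and 10.73, 11.00 and 10.65 in t(1;14), a log2 fold change of -1.29 (SE 0.18, adjusted p = 0.00196).

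DNAJC19, a J-domain protein of the mitochondrial inner membrane, read 10.10, 9.74 and 9.86 in control and 10.91, 10.94 and 10.88 in t(1;14), a rise of 1.01 (SE 0.13, adjusted p = 0.00143), with 5 of its 7 probes past the test. DNAJC12 rose by 0.84 (SE 0.13, adjusted p = 0.00296). DNAJB1, the main J-domain partner of inducible HSP70, was lower by -0.49 (SE 0.14, adjusted p = 0.0284), and 1 of its oligospermic spots was saturated. The other 11 J-domain genes that did not pass had log2 fold changes between -0.38 and 0.53.

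Of the co-chaperones BAG4, an HSP70 release factor that also binds death receptors, fell from 12.07, 12.25 and 11.81 in control to 10.45, 10.69 and 10.58 in t(1;14) (-1.47, SE 0.15, adjusted p = 0.000626), and its other probe fell by 2.05. STIP1 differed by -0.11 (SE 0.15, adjusted p = 0.547). BAG6, which guards membrane proteins on their way to the membrane and is needed in spermatogenesis, read 15.80, 16.14 and 15.89 in control and 15.78, 15.84 and 15.69 in t(1;14) at the reported probe (-0.18, SE 0.13, adjusted p = 0.299). That probe was saturated on 2 control, 2 oligospermic and 1 t(1;14) array, and the 3 other BAG6 probes fell.

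Several genes had a different value at each end of the transcript. At the BAG6 probes starting at bases 1587, 2170, 3575 and 3691 the log2 fold change of t(1;14) against control was -1.60, -1.28, -0.88 and -0.18, of which the first 3 passed the test. The last of these, the reported probe, had saturated spots in every group, and what part saturation had in its small difference was not tested. At base 1587 BAG6 read 8.40, 8.37 and 8.23 in control, 7.911, 7.927 and 7.999 in oligospermic and 6.80, 6.76 and 6.65 in t(1;14). DNAJC14, a J-domain protein of the endoplasmic reticulum, went from -1.21 at base 708 through -0.94, -0.74 and -0.26 to 0.15 at base 2859, the reported probe. DNAJA4 had -2.07 at base 373 and -0.15 at base 2928 (adjusted p = 0.395). These differences became smaller towards the 3′ end in DNAJC14 and DNAJA4, and in BAG6 also over the first 3 probes alone, which had no saturated spot in t(1;14) or control.

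HSPA13 changed direction. At base 1037 it read 8.03, 8.42 and 8.46 in control, 8.39, 8.40 and 8.57 in oligospermic and 6.466, 6.456 and 6.496 in t(1;14), a fall of 1.83 (SE 0.15, adjusted p = 0.000259). Its 3 probes at bases 3029, 3956 and 3962 rose by 0.97, 0.95 and 0.94. DNAJB2 and HSPA4L also had a probe that fell, by 1.24 and 1.40, and a reported probe that did not pass.

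HSPB8 was uniform but for 1 probe. The probe at base 1091 read 8.95, 9.05 and 8.90 in control and 8.96, 8.77 and 8.94 in t(1;14), a difference of -0.08 (SE 0.11, adjusted p = 0.595), while probes on both sides of it gave 1.86 to 2.39, of which 5 passed the test. The HSPB8 probe at base 528, which is not among these 5, was well above background on 1 control array. It entered the test only through its t(1;14) arrays, so its 2.15 (SE 0.56, adjusted p = 0.02) is no exact fold change. HSP90AB1 ran the other way, with 1.21 and 1.42 near base 782 and 0.68 at base 2505.

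**Figure D3:**
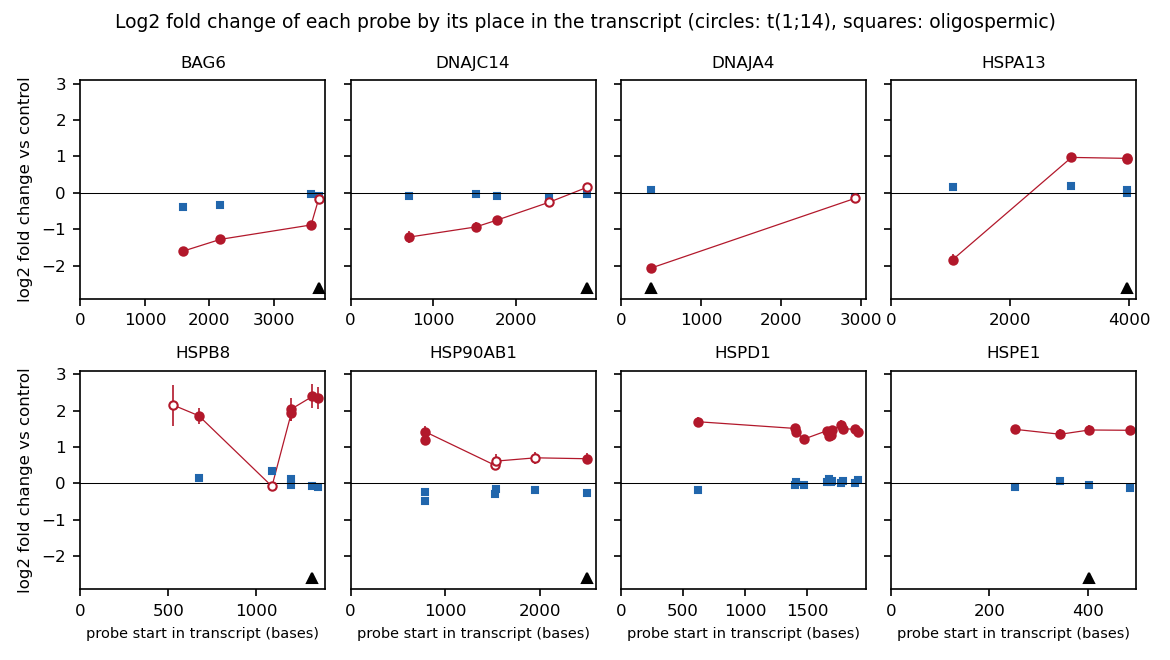
Log2 fold change against control (vertical axis) of each tested probe on 1 transcript of each of 8 genes by the start of the probe in the transcript (horizontal axis, bases), for t(1;14) (red circles with SE, filled where the adjusted p was at most 0.01) and oligospermic (blue squares); black triangles mark the reported probe where it lies on the transcript shown. BAG6 (its last probe with saturated spots), DNAJC14 and DNAJA4 approach 0 towards the 3′ end, HSPA13 crosses it, HSPB8 has 1 probe at -0.08 among values above 1.8, and the HSPD1 and HSPE1 probes on the transcripts shown stay between 1.22 and 1.70.

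Such a slope along transcripts was not limited to chaperones. Over 1997 transcripts of the array with tested probes at least 500 bases apart, the log2 fold change of the 3′-most probe minus that of the 5′-most probe had a median of 0.31, and 74.6% were above 0. Over the 19 member transcripts the median was 0.19 and 15 were above 0. On single arrays the median of this difference, set against the control mean of each transcript, was 0.30, 0.29 and 0.35 in t(1;14), 0.07, 0.08 and 0.00 in oligospermic and 0.01, -0.05 and 0.04 in control. The 3 t(1;14) arrays thus lay above the 6 others, and the part of this slope in the results of single genes was not tested. With the 5′-most tested probe of each gene in place of the reported one, chosen after seeing the data, 7 of the 48 genes rose and 11 fell, in place of 11 and 6. Over all genes with a RefSeq symbol the same change took the share that rose from 16.2% to 12.2% and the share that fell from 19.0% to 20.5%.

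Of the 28 genes with at least 2 tested probes, 3 rose at all of them (HSPB1, HSPD1 and HSPE1) and 3 fell at all of them (BAG4, DNAJC5B and HSPA12A). In 12 no probe passed, in 9 some passed in 1 direction, and HSPA13 had probes in both. By probe, 46 of the 141 tested member probes rose and 18 fell, against 15.6% and 15.6% of all tested probes, but 20 of the 46 are HSPD1 probes, so this count weighs 1 gene heavily.

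The oligospermic boar was compared with control in the same way. Of the 48 genes none rose and none fell by limma, against 0.0478% and 0.0277% of the 39713 tested probes, and none was differential, against 0.0453% upwards and 0.0277% downwards. None had an unadjusted p under 0.05 either, and the smallest adjusted p was 0.543 (HSPB1). The log2 fold changes lay between -0.26 (HSPB1, SE 0.12) and 0.36 (DNAJC21, SE 0.18), with a median of 0.01 against 0.00 over all probes. The groups did not overlap for 4 of the 48 genes and for 15.7% of the tested probes. HSPA1L, DNAJC5B, HSPD1 and CANX differed by 0.27, 0.00, 0.06 and -0.05.

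The t(1;14) arrays were also set against the oligospermic ones, so that both groups had abnormal semen; this comparison shares its t(1;14) arrays with the one against control. Here 13 of the 48 genes rose and 7 fell, against 27.1% and 22.0% of the 40567 tested probes. The count for differential genes was 1 upwards and 4 downwards, against 1.93% and 4.89% of the probes. HSPB8 was higher by 2.47 (SE 0.16, adjusted p = 5.34e-05), and HSPA1L lower by -2.37 (SE 0.13, adjusted p = 2.93e-05). HSPA12A, at -2.24 (SE 0.20, adjusted p = 0.000148), joined DNAJC5B (-2.17) and DNAJA4 (-2.14) among the differential genes, but stood at -1.35 with normexp background correction and was then not differential. The mitochondrial pair rose, HSPD1 by 1.35 (SE 0.12, adjusted p = 0.000144) and HSPE1 by 1.51 (SE 0.12, adjusted p = 9.15e-05), and so did CANX, by 1.88 (SE 0.11, adjusted p = 3.95e-05). For all 20 genes the groups did not overlap, so the differences within each slide had to have 1 sign on all 3 slides.

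Some genes passed in only one of these comparisons, though for those named here this turned on the setting. CLGN rose by 0.41 (SE 0.10, adjusted p = 0.00885), a call lost under 9 of 16 alternatives with an adjusted p of up to 0.135. Over the alternatives its log2 fold change went down to 0.17. CCT6A rose by 0.70 (SE 0.12, adjusted p = 0.00278) and DNAJC13, an endosomal J-domain protein, by 0.55 (SE 0.09, adjusted p = 0.00254) over oligospermic, and HSPA4L fell by 0.51 (SE 0.08, adjusted p = 0.00227). HSPA8, at 0.56 (SE 0.15, adjusted p = 0.0161), passed against control and not here. Under the alternatives CCT6A lost its call over oligospermic in 2, DNAJC13 in 3 and HSPA4L in 3, and against control they gained one in 3, 2 and 2. HSPA8 gained one over oligospermic in 3. Whether the difference itself changed between the comparisons was not tested. The median of the 48 genes was 0.07 against 0.14 for all probes, and under scaling by the 75 percentile it was -0.06.

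The genes that work around these chaperones, such as HSP90 co-chaperones, prefoldins and regulators of the unfolded protein response, were counted from a list of 54, of which 28 were on the array and tested. Against control 4 rose and 3 fell, against 15.6% and 15.6% of all tested probes. CRYAB, a small heat shock protein without the HSP prefix, rose by 1.14 (SE 0.16, adjusted p = 0.00212), and UNC45A, a myosin chaperone, by 0.83 (SE 0.16, adjusted p = 0.00671). ATF4 and DDIT3, transcription factors of the integrated stress response, rose by 0.71 (SE 0.12, adjusted p = 0.00415) and 0.51 (SE 0.10, adjusted p = 0.00775). ATF6, a sensor of unfolded protein in the endoplasmic reticulum, fell by 0.74 (SE 0.15, adjusted p = 0.00798), as did the HSP90 co-chaperone FKBP4, by 0.71 (SE 0.12, adjusted p = 0.0042), and FKBP8, by 0.54 (SE 0.10, adjusted p = 0.00635). None passed in oligospermic against control, and against oligospermic 10 rose and 6 fell, against 27.1% and 22.0% of all tested probes. The median of the 28 genes against control was 0.34, beside 0.14 for all probes.

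Chromosomes 1 and 14 are those joined by the translocation. Of the members on chromosome 1, HSPA5, DNAJB5 and TCP1 did not pass against control. Of the 5 on chromosome 14, HSPB8 and DNAJC12 rose, HSPA12A fell, and BAG3 and DNAJB12 did not pass.

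Several markers of the cell types of the testis also differed in t(1;14). Of the spermatid markers 7 of 12 were on the array and 5 of them fell in t(1;14) against control, beside 15.6% of all tested probes. AKAP4 (log2 fold change -2.27) and CAPZA3 (-1.63) were among the 5. PRM1 (-0.01, SE 0.16, adjusted p = 0.965, limma) and PRM2 (-0.32, SE 0.14, adjusted p = 0.104) did not pass. The summed signal of the spermatid markers was 255738 to 301948 in control, 273109 to 286113 in oligospermic and 159304 to 162259 in t(1;14). Of the Leydig cell markers 7 of 8 were on the array and 5 rose, beside 15.6% of all tested probes, with STAR up by 3.72 and CYP17A1 by 2.39. INSL3 (0.34) and CYP19A1 (0.29) did not pass. The sum of the Leydig cell markers was 61517 to 64709 in control, 48829 to 64843 in oligospermic and 123361 to 132043 in t(1;14). Between t(1;14) and the other groups neither sum overlapped, and those of spermatocytes, spermatogonia, Sertoli cells and immune cells did not either. These sums are led by the brightest probes, and single markers went against them: WT1, a Sertoli marker, fell by 1.43 and HORMAD1, a spermatocyte marker, rose by 0.97.

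The remaining lists were counted in the same way, beside 15.6% of all tested probes that rose and 15.6% that fell. Of the spermatocyte markers 5 of 12 were on the array, 1 rose and 2 fell, and their sum was 62021 to 72920 in control, 76267 to 83711 in oligospermic and 44177 to 47363 in t(1;14). For spermatogonia 5 of 10 were on the array and 1 rose (sums of 3550 to 5136, 3359 to 4438 and 6935 to 7461 in that order of groups), and GFRA1 was not well above background on any array. For Sertoli cells 8 of 10 were on the array, 2 rose and 1 fell (14614 to 25760, 13570 to 19604 and 28659 to 30135). For peritubular and vascular cells 6 of 8 were on the array, 2 rose and 1 fell (14115 to 25745, 15132 to 22002 and 15242 to 20518), and for immune cells 5 of 8 were on the array and 1 rose (142 to 238, 138 to 152 and 283 to 338), with CD3E and CD4 not well above background on any array. No marker of any list passed in oligospermic against control. SPO11, a spermatocyte marker, stood at -2.14 there without passing (SE 0.23, adjusted p = 0.0363, limma). In t(1;14) against control SPO11 fell by 1.03 (SE 0.21, adjusted p = 0.00826). What part the make-up of cells had in the chaperone results was not tested.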

How the data were processed

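Testis RNA of 9 samples was labelled with cyanine 3 and hybridized by the authors to a custom porcine Agilent array, which was read with Feature Extraction 11.5.1.1. The spot values they deposited are intensities after background subtraction, with no normalization between arrays. The authors also deposited a log2 table, quantile normalized over the 9 arrays, which served to choose 1 probe per gene and as an alternative. For the tests, the spot intensities of all 9 arrays were put on a log2 scale and then quantile normalized. A probe was tested if well above background and without outlier flags on at least 2 of 3 arrays of a compared group. The 2 groups were fitted with limma 3.58.1 (R 4.3.3; the summaries used Python 3.11.15 and pandas 2.3.3), with Benjamini-Hochberg adjustment over all tested probes, and the thresholds are those of the methods. The fits were tested on simulated data.

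Deviations of control and oligospermic arrays with the same replicate number, which share a slide, correlated at 0.49, 0.14 and 0.10, so the numbers pair them through the slide. Those of t(1;14) and control arrays correlated at -0.29, -0.20 and 0.14 by number, which does not pair them, and at 0.35, 0.11 and 0.12 by slide. For t(1;14) and oligospermic arrays the values were -0.43, -0.34 and 0.12 by number and 0.50, 0.30 and 0.34 by slide.

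Of the 52 gene names, 33 were matched to the RefSeq table of Sscrofa11.1 by accession and 19 by symbol, and 3 were updated through it (HSPCB, HSP27 and HSP70). No genome of the series' build was used. The genes, families and lists, and the rule for the genes to name (differential genes, the 3 largest changes in each family, and the core genes of the system), were chosen with earlier results of these data known. Members named beyond that rule (HSPA6, HSP70.2, HSPB2, CCT2, CCT3, DNAJB2, DNAJC12, DNAJC13, DNAJC14, DNAJB5, DNAJB12 and BAG3) and the genes of the wider lists were chosen after their values were seen. With 3 arrays a group, precision is limited by that number.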

Additional observations from a re-analysis of the deposited data

How the results depend on the processing

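In oligospermic against control 0 genes rose, fell or were differential under every alternative run, slide and replicate number as a block and leaving out each array included, but at most 0.169% of all probes rose and 0.154% fell in any of them. For t(1;14) against control, the count that rose was 4 in place of 11 with a replicate block, although the numbers pair nothing there (all probes: 4.07% in place of 15.6%), and 7 with the 5′-most tested probe (all genes: 12.2% in place of 16.2%). The count that fell was 10 in place of 6 when a gene was counted if its tested probes that fell were no fewer than the others (all genes: 20.5% in place of 19.0%), and 11 with the 5′-most probe (20.5%). The count of differential genes was 11 in place of 4 at a fold threshold of 1 on the log2 scale (all genes: 21.2% in place of 6.9%), and 2 with the 3′-most probe (6.15%). Leaving out 1 array gave 5 to 11 genes that rose, with 7, 7 and 5 without t(1;14) array 1, 2 and 3 (all probes: 6.01%, 7.17% and 4.92%). It gave 4 to 6 that fell and 3 to 5 differential. For t(1;14) against oligospermic, 7 in place of 13 rose with the replicate block (all probes: 14.5% in place of 27.1%), 12 in place of 7 fell with the 5′-most probe (all genes: 27.9% in place of 26.3%), and 12 in place of 5 were differential at the threshold of 1 (27.4% in place of 7.99%), and 3 with the 3′-most probe (7.48%). Leaving out 1 array gave 8 to 12 that rose, the lowest without t(1;14) array 3 (all probes: 17.7%). The end-of-transcript probes were chosen after seeing the data, and the causes were not tested.

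No gene that rose or fell changed sign under any alternative run on its reported probe. Alternatives that changed only the filter, the block or the variance estimate kept the log2 fold change, so they could not change a sign. Leaving out 1 array of groups that do not overlap was unlikely to do so. HSP90AB1 lost its call against control under 10 of 16 alternatives, HSPA8 under 7, HSPA13 and DNAJC12 under 4, PDIA4 under 3, DNAJC21 and HSPA12A under 2, and DNAJC19, HSPB1 and HSPB8 under 1 (HSPB8 without t(1;14) array 3, adjusted p = 0.0104), while HSPD1, HSPE1, CANX, HSPA1L, DNAJC5B, DNAJA4 and BAG4 lost theirs under none. With normexp background correction the log2 fold changes against control of HSPA12A and DNAJC12, at -1.12 and 0.39 in place of -1.91 and 0.84, moved by over 1.5 times, and both still passed. Scaling by the 75 percentile gave a median of the 48 genes of 0.01 in place of 0.13 against control, and of -0.06 in place of 0.07 against oligospermic, a change of sign in a value with no test. DNAJC6, HSPB3 and PDIA2 had too little signal over background to be tested.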

Other observations

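Some probes carry a chaperone only in their description or accession and were therefore not counted among the 48 genes. A probe described as DnaJ homolog subfamily B member 13, a protein of the sperm tail, had mean log2 signals of 13.54 (SD 0.43) in control, 13.62 (SD 0.09) in oligospermic and 12.30 (SD 0.05) in t(1;14), 3 arrays each. It fell by 1.24 against control (SE 0.22, adjusted p = 0.00508, limma) and by 1.33 against oligospermic (SE 0.09, adjusted p = 6.15e-05). A probe whose accession is that of DNAJC18 fell by 1.09 (SE 0.13, adjusted p = 0.0011) and 1.18 (SE 0.09, adjusted p = 0.000104). A second probe for calreticulin, matched by accession, differed by 0.07 from control (SE 0.11, adjusted p = 0.613), and one described as calmegin by -0.25 (SE 0.17, adjusted p = 0.273). A probe described as disulfide isomerase A6 differed by 0.40 from control (SE 0.17, adjusted p = 0.09) and rose by 0.71 over oligospermic (SE 0.13, adjusted p = 0.00321). One described as calnexin differed by 0.36 from control (SE 0.18, adjusted p = 0.14) and rose by 0.66 over oligospermic (SE 0.12, adjusted p = 0.00354). One described as disulfide isomerase A4 differed by 1.30 from control (SE 0.53, adjusted p = 0.0844), where it was well above background on 2 of 3 arrays. A pair of probes described as DnaJ subfamily C member 16 did not pass against control (-0.25 and 0.35), and over oligospermic one fell by 0.61 (SE 0.12, adjusted p = 0.00485) and the other rose by 0.81 (SE 0.19, adjusted p = 0.00981). Probes described as DNAJC4, DNAJC10 and HSPB6 differed by 0.53, -0.16 and -0.20 from control and did not pass in any comparison. One described as DNAJB1 and one as mitochondrial HSP60 were not well above background on any array. No probe of this kind passed in oligospermic against control. These probes were found after the members' values were seen.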
